A study of Mus musculus with 12 samples.

Results

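The genes described here are 52 genes of DNA replication and of the step into S phase (G1/S), read in 12 RNA-seq libraries of mouse bone marrow. They were listed by name for what they do, by a rule that uses no measured value, though with earlier results of these data known. All 52 were among the 37187 genes of the deposited table. All 52 also passed the filter on low values (at least 10 in at least 3 libraries), as did 14045 genes in all. The 4 genotypes, with 3 libraries each, were a double knockout of Tet2 and Traf6 (labelled Tet2;TRaf6 dKO, here dKO), a knockout of Tet2 (Tet2 KO), a knockout of Traf6 (Traf6 KO) and wild type (WT). The TET2 protein removes methyl marks from DNA by oxidation, and TRAF6 is a ubiquitin ligase that carries signals from Toll-like receptors. The sorted bone marrow cells were LSK cells by their labels, a gate (no lineage markers, with Sca-1 and CD117) that holds stem cells and multipotent progenitors. The sources used here name no Cre driver, deleted exon, age or strain, nor whether each library is a separate mouse, so the p-values reflect how far the libraries differ, which may be technical.

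A cell prepares each origin of replication in G1, when the origin recognition complex, CDC6 and CDT1 load the ring of MCM2 to MCM7 onto DNA. At the start of S phase CDC45 and the GINS complex join that ring to form the active helicase, and polymerases alpha, delta and epsilon then copy the strands with the PCNA clamp, its RFC loader and the single-strand binder RPA. Ribonucleotide reductase, thymidylate synthase and dUTPase supply and clean the nucleotide pool. Many of these genes are known targets of E2F factors, which cyclin E with CDK2 helps to release from the RB protein.

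The promoters are shown because E2F control is what the genes are best known to share. RefSeq start sites (GRCm38.p6) were matched for 43 of the 52 genes, with 51 promoters, each read from 250 bases before to 50 bases after the start. The letters TTTCCCGC, TTTGGCGC, TTTCGCGC or TTTGCCGC, on either strand, stood in 15 of these 51 promoters (29.4%), against 744 of 32851 promoters of all genes (2.26%). Some of these letters overlap one another, as in Mcm6. The E-box CACGTG stood in 8 of the 51 (15.7%), against 7.15% of all promoters, and CCAAT on either strand in 27 (52.9%), against 37.4%. The 170 bases before the start site are printed for 4 members with E2F letters there (in capitals), chosen because their dKO results differ: Mcm6 and Mcm7 passed the test neither way, Rfc3 was higher and Pola1 was lower. Mcm6 is at chr1:128359706-128359875 (minus strand), Mcm7 at chr5:138171884-138172053 (minus strand), Rfc3 at chr5:151651209-151651378 (minus strand) and Pola1 at chrX:93632156-93632325 (minus strand).
Mcm6: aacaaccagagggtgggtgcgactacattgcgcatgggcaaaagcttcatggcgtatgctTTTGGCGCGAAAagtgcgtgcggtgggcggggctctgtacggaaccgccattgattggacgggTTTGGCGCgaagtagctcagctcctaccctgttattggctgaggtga
Mcm7: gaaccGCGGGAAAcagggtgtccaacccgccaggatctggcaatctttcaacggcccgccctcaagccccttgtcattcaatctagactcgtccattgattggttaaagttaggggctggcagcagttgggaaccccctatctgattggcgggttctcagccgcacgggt
Rfc3: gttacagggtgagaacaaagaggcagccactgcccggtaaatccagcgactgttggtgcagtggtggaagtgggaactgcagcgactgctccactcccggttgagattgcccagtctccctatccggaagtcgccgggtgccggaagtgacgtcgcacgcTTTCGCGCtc
Pola1: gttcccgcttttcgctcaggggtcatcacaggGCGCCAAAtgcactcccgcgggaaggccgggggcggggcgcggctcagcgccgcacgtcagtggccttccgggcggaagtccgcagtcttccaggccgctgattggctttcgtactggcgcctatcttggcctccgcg
Among members with a matched promoter, the E2F letters did not go with 1 direction in dKO. The matched promoters cover 16 of the 22 members higher in dKO and 5 of the 6 lower. Gins1, Gins2, Gins4, Tipin, Rfc2, Prim2 and Pole had none. They stood in 2 of 17 promoters of members higher in dKO (Rfc3 and Pole2), in 2 of 5 of members lower in dKO (Pola1 and Pold1) and in 11 of 29 of the other members. A match is a run of letters and no evidence of binding.

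Each library held 22169673 to 53921402 recovered reads, and 1 read was worth 0.518 to 1.79 units of signal. Replicate 3 of dKO stood apart as a library, with a signal total of 3.997e+07 against 2.556e+07 to 2.892e+07 in the others. Between libraries of the same genotype, the chi-square per gene was 615 and 325 for it against dKO replicates 1 and 2. For the other pairs it was 19.6 to 146. Traf6 stood at 799, 1313 and 967 in dKO and at 2474, 854 and 568 in Traf6 KO, against 1935 to 3006 in WT, so the library labelled Traf6 KO replicate 1 lay inside the WT range. Tet2 stood at 326, 197 and 261 in dKO and at 668, 403 and 486 in Tet2 KO, against 525 to 783 in WT, so the library labelled Tet2 KO replicate 1 lay inside the WT range for its target too. Tet2 also stood at 722, 339 and 427 in Traf6 KO, and Traf6 at 3127, 1432 and 1776 in Tet2 KO. The ranges of Tet2 KO and Traf6 KO thus overlapped for both genes. Xist stood at 990.3 to 3826 in the single-knockout libraries and at 17.0 or less in dKO and WT, and the library labelled Traf6 KO replicate 1 also held 1524 of the Y-linked Eif2s3y. Eif2s3y stood at 2812 to 5669 in dKO and WT and at 55.4 or less in the other single-knockout libraries. A difference of a single knockout from dKO or WT therefore cannot be told apart from one between libraries with and without Xist signal. Of the 8 LSK markers 5 fell and 0 rose in dKO over WT, where 26.5% of all genes tested fell and 21.9% rose. Those of the gate went apart, with Kit at 11935, 4099 and 4105 in dKO, against 44484 to 47837 in WT, and Ly6a (Sca-1) at 1968, 2446 and 13218 in dKO, against 1989.9 to 2339 in WT. Cd34 (40877 to 59383 in dKO and 37782 to 52709 in WT) and Flt3 (11768 to 19755 in dKO and 10044 to 14503 in WT) overlapped. The 8 summed to 79400 to 101747 in dKO and 123135 to 138146 in WT. Markers of neutrophils and monocytes (10 genes) summed to 124348 to 203719 in dKO, 48468 to 103905 in Tet2 KO, 19601 to 121092 in Traf6 KO and 16368 to 29707 in WT. Erythroid markers (8 genes) summed to 83343 to 119279 in dKO, 60797 to 179039 in Tet2 KO, 52162 to 62124 in Traf6 KO and 44929 to 56732 in WT. Mast cell and basophil markers (6 genes) summed to 5934 to 10437 in dKO, 1369 to 1769.6 in Tet2 KO, 3569 to 9159.9 in Traf6 KO and 1354 to 2176 in WT. B, T and NK cell markers (9 genes) summed to 8131 to 78483 in dKO, 5548 to 17864 in Tet2 KO, 7662 to 12329.6 in Traf6 KO and 5013 to 5957 in WT, with Cd3e at 0 in all 12 libraries, and stromal and endothelial markers (6 genes) to 1235 to 3463 in dKO and 3680 to 4499 in WT. The part of these cell types and of transcript length in the results below was not tested, beyond the fits with the length trend removed. The dKO libraries also differed from WT by transcript length. Among genes of at most 1000 nucleotides the median log2 difference from the WT mean was 0.78, 1.20 and 2.84 in dKO replicates 1 to 3, and among genes over 4000 nucleotides it was -0.81, -1.42 and -1.41.

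In dKO libraries against WT, 22 of the 52 replication genes rose and 6 fell. The genes that rose most were Gins1, Tipin, Dut and Gins2, each by 3.30-fold or more, and the genes that fell were Pole, Pold1, Pola1, Chaf1a, Mcm10 and Mcm2. Of all 14045 genes tested, 48.3% passed in either direction, 21.9% higher and 26.5% lower. The members' median log2 change was 0.44, against -0.09 over all genes tested. All 3 dKO libraries lay above all 3 WT libraries for 27 members (27.9% of all genes tested) and below them for 3, namely Pola1, Pold1 and Pole (30.5%). The test throughout was limma on log2(signal + 1), with Benjamini-Hochberg adjustment over all genes tested and a threshold of 0.05. In bulk samples fewer cells of a type and less RNA per cell cannot be told apart.

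**Figure D1:**
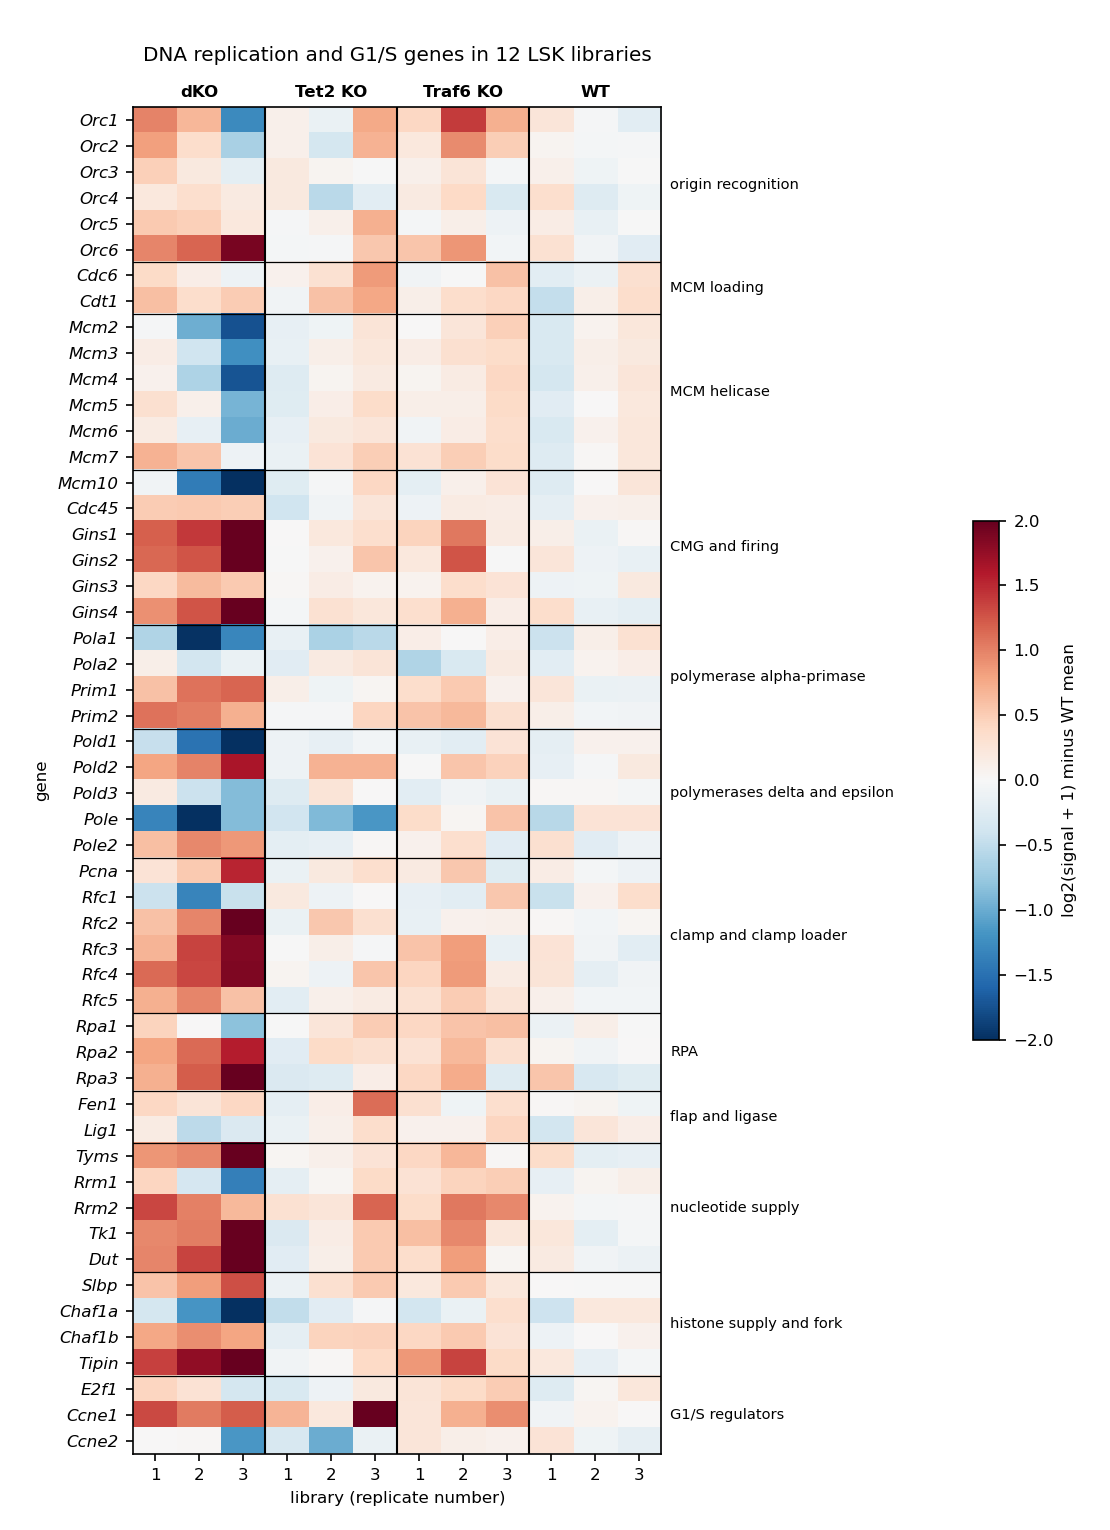
Heat map of the 52 genes (rows, grouped by role) in 12 libraries (columns, by genotype and replicate number), coloured by log2(signal + 1) minus the mean of the WT libraries; the scale ends at 2 in both directions. In dKO columns the GINS, clamp loader, RPA and nucleotide supply rows are mostly red, while Mcm10, Pola1, Pold1, Pole and Chaf1a are blue and the MCM rows differ between the dKO libraries.

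Licensing genes mostly stayed short of the threshold in dKO. Of the 6 origin recognition subunits only Orc6, the smallest of the complex, passed. Orc6 stood at 4310.1, 4921 and 8184 in dKO, 2133, 2142 and 3179 in Tet2 KO, 3209.6, 4032 and 2111 in Traf6 KO and 2709.8, 2076 and 1859 in WT. All dKO libraries lay above all others (2.55-fold over WT, log2 change 1.35 ± 0.31 (SE), adjusted p = 0.00416). Orc1, the subunit that comes and goes with the cell cycle, was uneven in dKO at 1272, 1017 and 265, against 756, 631 and 552 in WT. Cdt1, which carries MCM rings to the origin, stood at 4109, 3454 and 3849.6 in dKO, 2586, 4074 and 4624 in Tet2 KO, 2936, 3469.8 and 3634 in Traf6 KO and 1959, 2957 and 3464 in WT, and dKO and WT overlapped (log2 change 0.48 ± 0.27 (SE), adjusted p = 0.15). Cdc6, the ATPase that loads the ring with it, had log2 change 0.14 ± 0.27 (SE), adjusted p = 0.697.

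The genes of the MCM2 to MCM7 ring differed between the dKO libraries, and all 6 were highest in dKO replicate 1 and lowest in replicate 3. Mcm2 stood at 17401, 8965 and 5249 in dKO, 15753, 16573 and 21102 in Tet2 KO, 17667, 20767 and 24593 in Traf6 KO and 14337, 18419.7 and 20718 in WT. Replicate 1 of dKO lay inside the WT range and replicates 2 and 3 lay below it. Mcm2 was lower in dKO (log2 change -0.91 ± 0.34 (SE), adjusted p = 0.0411), but the call ended in 7 of the 12 fits that leave out a library, including those without dKO replicate 2 or 3. The other 5 subunits passed neither way, with log2 changes of -0.75 (Mcm4) to 0.38 (Mcm7). Mcm6, which had the highest WT signal per kilobase of the 52 genes (13486), stood at 43646, 34648 and 19402 in dKO and 31355, 41167 and 45213 in WT. Averaged over the 6 subunits, log2 differences from the WT mean were 0.23, -0.25 and -1.12 in dKO replicates 1 to 3.

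Of the 4 genes of GINS, the partner of that ring in the active helicase, 3 rose. Gins1 stood at 2195, 2542 and 6731 in dKO, 959, 1101 and 1203 in Tet2 KO, 1302, 1988 and 1064 in Traf6 KO and 1031, 868 and 970.4 in WT. Gins2 stood at 2243, 2433 and 6832 in dKO, 1010.4, 1069.7 and 1487 in Tet2 KO, 1166, 2419 and 1011 in Traf6 KO and 1199.9, 944 and 915 in WT. In both genes every dKO library exceeded every WT library, with dKO replicate 3 highest. Gins1 had log2 change 1.81 ± 0.37 (SE), adjusted p = 0.00245 and Gins2 log2 change 1.72 ± 0.42 (SE), adjusted p = 0.00559. Gins4 rose too (1.50, adjusted p = 0.00326), while Gins3 (0.53, adjusted p = 0.0534) and Cdc45 (0.51, adjusted p = 0.0707) did not pass although all dKO libraries lay above WT. Mcm10, a firing factor that binds the assembled helicase, was the exception at 2382, 956 and 545 in dKO, 2133, 2459.8 and 3362 in Tet2 KO, 2190.1, 2681 and 3023 in Traf6 KO and 2103, 2537 and 2967 in WT. Its dKO libraries ran from inside the WT range to far below it (log2 change -1.22 ± 0.41 (SE), adjusted p = 0.0267), and the call ended without WT replicate 2 or 3 or dKO replicate 2 or 3. The mean log2 signal of the 4 GINS genes minus that of the 6 MCM genes was -3.25, -2.55 and -0.71 in dKO, -3.76, -3.87 and -3.94 in Tet2 KO, -3.76, -3.34 and -4.19 in Traf6 KO and -3.50, -4.12 and -4.19 in WT. Once a trend on length and GC content was taken out (below), these were -3.39, -3.03 and -1.91 in dKO and -3.41, -3.79 and -3.83 in WT, so dKO replicate 1 stood beside WT replicate 1. This mean leans on Gins2, which varies with the length used, and the median of the 4 GINS genes after removal was 0.45, 0.45 and 0.59 above the WT mean in dKO replicates 1 to 3. Gins2 shares 67.3% of its exon bases with Gse1 on the opposite strand, and the kit does not mark strand.

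**Figure D2:**
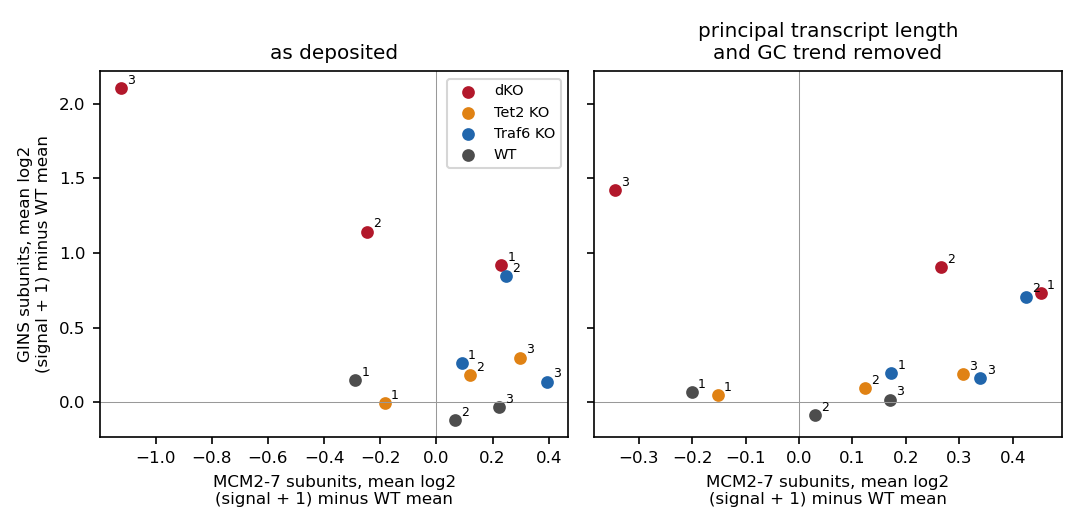
Mean log2(signal + 1) minus the WT mean of the 6 MCM2 to MCM7 genes (x axis) against that of the 4 GINS genes (y axis), 1 point a library with its replicate number, as deposited (left) and after removal of the principal transcript's length and GC trend (right). The dKO points spread up and to the left in the left panel, from 0.23 and 0.92 in replicate 1 to -1.12 and 2.10 in replicate 3.

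The polymerases differed by subunit. The catalytic subunits of polymerases alpha, delta and epsilon (Pola1, Pold1 and Pole) fell, and both primase subunits (Prim1 and Prim2), Pold2 and Pole2 rose. This split also went with transcript length (below). Principal transcripts have 3454 (Pold1) to 7163 nucleotides (Pole) in the genes that fell and 1583 (Prim1) to 1975 (Prim2) in those that rose. Pola1, on the X chromosome, stood at 2755, 1056 and 1680.0 in dKO, 3775, 2685 and 2879.7 in Tet2 KO, 4601, 4204 and 4588 in Traf6 KO and 3106, 4544 and 5153 in WT. Pold1 stood at 6539.8, 3257 and 2099.9 in dKO, 8459, 8029 and 8704 in Tet2 KO, 8172, 7847 and 10871 in Traf6 KO and 8025, 9583 and 9614 in WT. Pole stood at 1213, 703 and 1655 in dKO, 2313, 1651 and 1351 in Tet2 KO, 3918, 3116 and 4518 in Traf6 KO and 2068, 3668 and 3668 in WT. For all 3 genes each dKO library was below each WT library, and for Pole the Tet2 KO libraries were between dKO and Traf6 KO on average. Pola1 had log2 change -1.30 ± 0.32 (SE), adjusted p = 0.00563, Pold1 log2 change -1.35 ± 0.32 (SE), adjusted p = 0.00516 and Pole log2 change -1.43 ± 0.34 (SE), adjusted p = 0.00516. Prim2, the large primase subunit, stood at 4574, 4372 and 3508 in dKO, 2112, 2122 and 2898 in Tet2 KO, 3191, 3366 and 2671 in Traf6 KO and 2333, 2071 and 2048 in WT. Every dKO library exceeded every other library for Prim2 (log2 change 0.94 ± 0.22 (SE), adjusted p = 0.00412). Log2 changes were 0.94 for Prim1, 1.14 for Pold2 and 0.81 for Pole2, and Pole2 did not pass without WT replicate 2 or 3. Pola2 and Pold3 passed neither way (-0.13 and -0.37).

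Among clamp genes the 4 small loader subunits rose and the large one, Rfc1, did not pass (-0.73, adjusted p = 0.0584). Rfc4 stood at 6036, 6915 and 10001 in dKO, 2843, 2569 and 4044 in Tet2 KO, 3704, 4960.4 and 3084 in Traf6 KO and 3264, 2425 and 2606 in WT. All dKO libraries exceeded all others (log2 change 1.45 ± 0.27 (SE), adjusted p = 0.00141). Log2 changes of the other small subunits were 1.19 (Rfc2), 1.29 (Rfc3) and 0.76 (Rfc5). On the opposite strand Rfc2 shares 15.1% of its exon bases with Lat2, Rfc4 12.7% with Eif4a2 and Rfc5 10.7% with Wsb2. Pcna, the sliding clamp, stood at 3726, 4422 and 8836 in dKO, 2825, 3532 and 3884 in Tet2 KO, 3506, 4458 and 2607 in Traf6 KO and 3404, 3006 and 2862 in WT. The dKO libraries lay above WT, but Pcna missed the threshold (log2 change 0.77 ± 0.31 (SE), adjusted p = 0.0528). A pseudogene, Pcna-ps2, matches 51.4% of the Pcna transcript at 99.2% identity and had a mean signal of 873, so reads of the pair could have been split in the counting.

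RPA, which coats single-stranded DNA, moved by subunit as well, with principal transcripts of 5077 nucleotides in Rpa1, 1813 in Rpa2 and 670 in Rpa3. Rpa2 stood at 10151, 12892 and 17538 in dKO, 5039.6, 7701 and 7355 in Tet2 KO, 7176, 9184 and 7365 in Traf6 KO and 6092, 5623 and 5928 in WT. Its dKO libraries exceeded all others (log2 change 1.17 ± 0.24 (SE), adjusted p = 0.00236). Rpa3, the smallest subunit, stood at 1292, 1813 and 4532 in dKO, 644, 658 and 857 in Tet2 KO, 1049, 1317 and 658 in Traf6 KO and 1156, 632 and 663 in WT, with dKO replicate 3 far above the other dKO libraries. Rpa3 rose too (log2 change 1.48 ± 0.43 (SE), adjusted p = 0.0128), though not without WT replicate 2 (adjusted p = 0.0529), and Rpa1, the large subunit, did not pass (-0.12). Lig1, the ligase that seals Okazaki fragments, stood at 9672, 5972 and 7006 in dKO, 7806, 9178 and 10991 in Tet2 KO, 9156, 9142 and 11596 in Traf6 KO and 6637, 10112 and 9446 in WT, with 2 of the 3 dKO libraries inside the WT range (log2 change -0.22 ± 0.24 (SE), adjusted p = 0.482). Fen1, the flap nuclease, had low signal in every library (79.6 to 89.4 in dKO and 62.5 to 69.7 in WT), and 78.8% of its exon bases overlap Gm10143 on the opposite strand.

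Of the 5 nucleotide supply genes, 4 rose. Dut, the dUTPase that keeps uracil out of DNA, stood at 7650.0, 9846 and 28025 in dKO, 3318, 4198 and 5569 in Tet2 KO, 4920.4, 6922 and 3974 in Traf6 KO and 4379, 3690.1 and 3585 in WT. Tyms, thymidylate synthase, stood at 5130.3, 5409 and 13545 in dKO, 2865, 2991 and 3385 in Tet2 KO, 3713, 4442 and 2840.1 in Traf6 KO and 3588, 2425 and 2498 in WT. In both, the dKO libraries exceeded all WT libraries and dKO replicate 3, the library with the highest signal total, was far above the other dKO libraries. Dut had log2 change 1.73 ± 0.40 (SE), adjusted p = 0.00429 and Tyms log2 change 1.37 ± 0.34 (SE), adjusted p = 0.00585. Rrm2, the regulated subunit of ribonucleotide reductase, stood at 12095, 9658 and 7519 in dKO, 5877, 5649 and 10749 in Tet2 KO, 6174, 9943 and 9272 in Traf6 KO and 4999, 4652 and 4701 in WT. It rose (2.0-fold over WT, adjusted p = 0.0114), and every single-knockout library also exceeded every WT library. Its partner Rrm1 did not pass (-0.43), with dKO values of 25941, 15215 and 7447 against 17120.1, 19951 and 20926 in WT. Thymidine kinase Tk1 rose by 1.44 on the log2 scale (adjusted p = 0.00617).

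Tipin, which with TIMELESS steadies the replication fork, had the smallest p of the 52 genes in dKO. Tipin stood at 15612, 20866 and 27062 in dKO, 5814, 6154 and 8020.5 in Tet2 KO, 11026, 15538 and 7911 in Traf6 KO and 7031, 5418 and 5888 in WT. The dKO libraries exceeded all others, with Traf6 KO replicate 2 just below the lowest of them (3.40-fold over WT, log2 change 1.77 ± 0.27 (SE), adjusted p = 0.000579). The 2 chromatin assembly factor subunits went opposite ways, with principal transcripts of 5535 nucleotides in Chaf1a and 1922 in Chaf1b. Chaf1a, the large subunit, stood at 2964, 1673 and 768 in dKO, 2679, 3239 and 3733 in Tet2 KO, 2919.5, 3447 and 4768 in Traf6 KO and 2838, 4371 and 4359.8 in WT. Its dKO and WT libraries overlapped through dKO replicate 1, and it fell (log2 change -1.27 ± 0.40 (SE), adjusted p = 0.0184), though not without WT replicate 2 or 3 or dKO replicate 3. Chaf1b (0.83) and Slbp, which binds histone mRNA (0.90), rose. Chaf1a shares 52.5% of its exon bases with Ubxn6 on the opposite strand.

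The G1/S regulators themselves mostly did not pass. E2f1, an activating E2F, stood at 3076, 2791 and 1785 in dKO, 1839, 2137 and 2624 in Tet2 KO, 2717, 2979 and 3244 in Traf6 KO and 1905, 2349 and 2658 in WT, and dKO overlapped WT (log2 change 0.12 ± 0.25 (SE), adjusted p = 0.711). Ccne1, cyclin E1, stood at 1191, 979.5 and 1104 in dKO, 769, 553 and 2426 in Tet2 KO, 564, 784 and 906 in Traf6 KO and 453, 500.4 and 479.9 in WT. Every library of the 3 mutant genotypes exceeded every WT library, and Tet2 KO replicate 3 was highest of all. Ccne1 rose in dKO (log2 change 1.19 ± 0.43 (SE), adjusted p = 0.0357), but the call ended in each of the 6 fits that leave out a dKO or a WT library. Ccne2, cyclin E2, did not pass (-0.37).

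**Figure D3:**
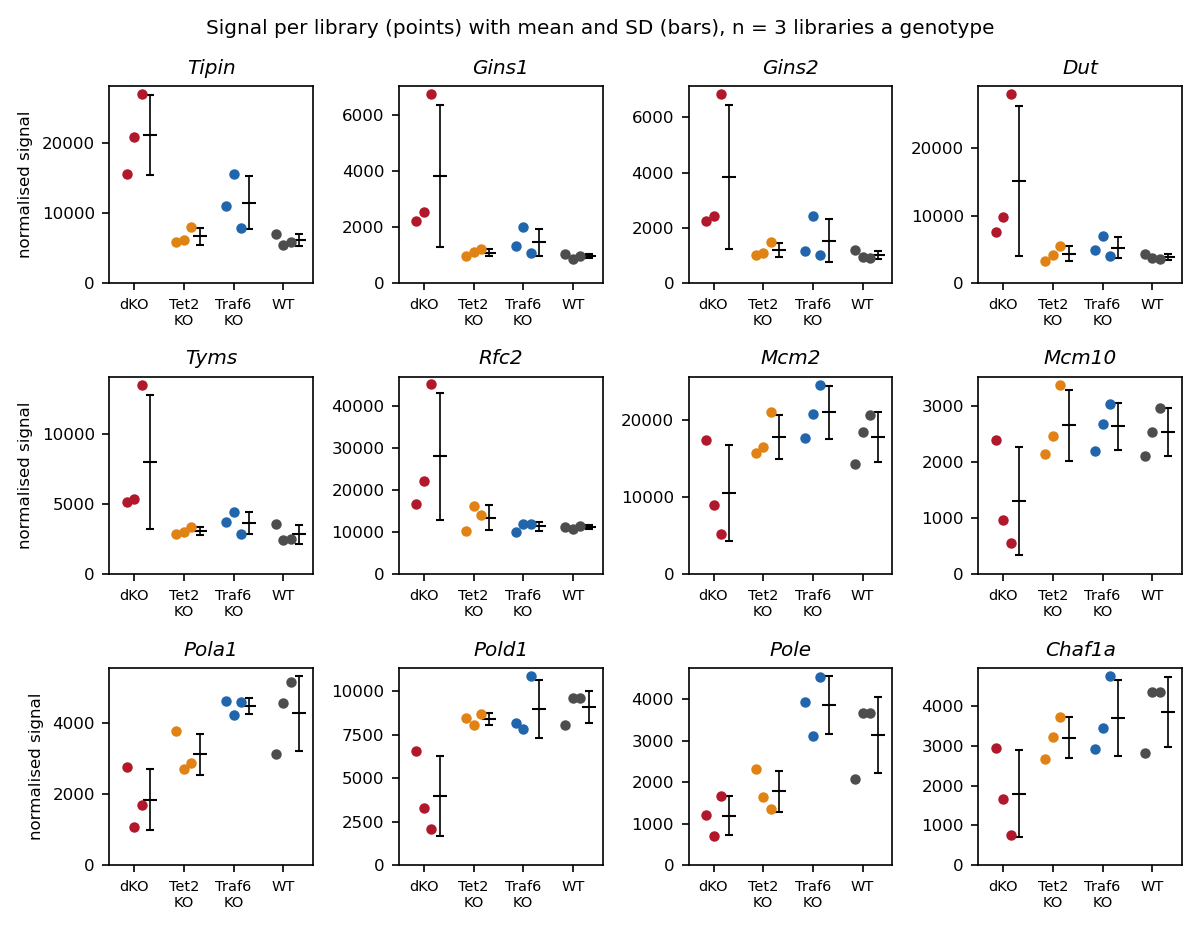
Normalised signal (y axis, from 0) of 12 genes by library, with dKO, Tet2 KO, Traf6 KO and WT from left to right; points are libraries, the bar beside them is the mean with the SD (n = 3). Tipin, Gins1, Gins2, Dut, Tyms and Rfc2 are highest in dKO with a wide spread, and Pola1, Pold1 and Pole are lowest there.

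The direction in dKO went with transcript length. Of 18 members whose principal transcript has up to 2000 nucleotides, 17 rose and 0 fell, with a median log2 change of 1.24. Over all 4213 tested genes of that length 51.7% rose and 2.54% fell, with a median of 1.11. Of 21 members over 3000 nucleotides, 3 rose (Gins2, Tyms and Rfc2) and 6 fell, with a median of -0.37, against 4.95% higher, 50.7% lower and a median of -1.09 for all 6338 genes of that length. Of these principal transcripts 555 of 3900 nucleotides code in Gins2, 921 of 3163 in Tyms and 1047 of 4995 in Rfc2. Their length class rests on the annotated transcript, and which transcript these cells hold was not tested. Of the 13 members between, 2 rose (16.9% of all such genes). Across the 52 members, Spearman's rho of the difference from the WT mean with principal transcript length was -0.62, -0.76 and -0.72 in dKO replicates 1 to 3, and -0.55, -0.62 and -0.64 across 13677 genes. Genes are not independent replicates, and WT libraries showed slopes as well (-0.56, 0.56 and 0.50 across members).

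**Figure D4:**
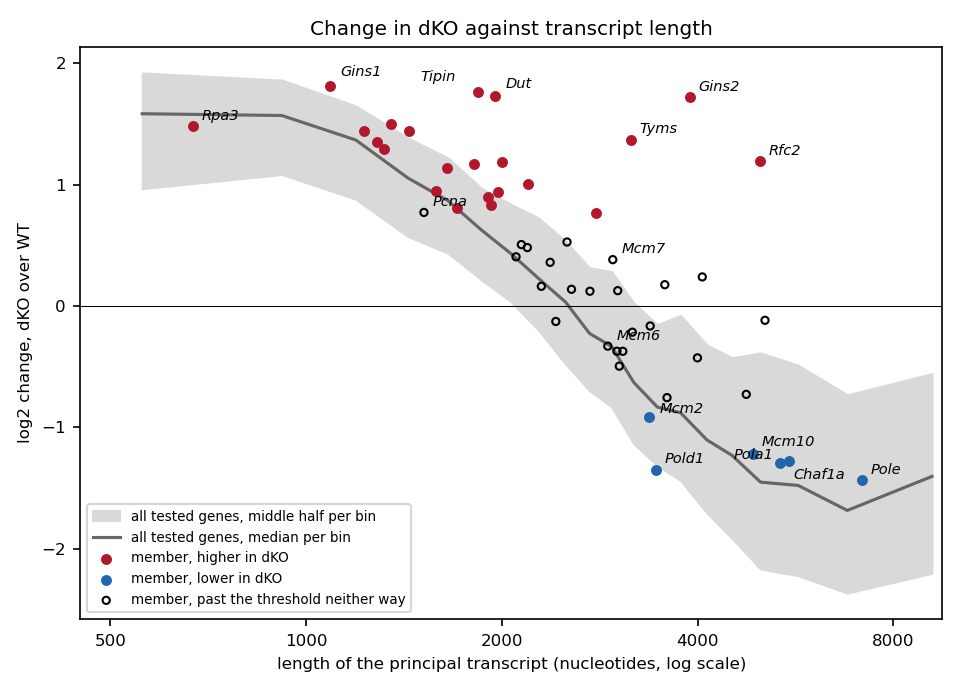
Log2 change in dKO over WT (y axis) against the length of the principal transcript (x axis, log scale) for the 52 genes, coloured by call; the grey line and band are the median and interquartile range of all tested genes in 20 bins of length. Members over 3000 nucleotides mostly lie below 0 with the band, and Gins2, Tyms and Rfc2 lie furthest above it.

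With a loess trend on length and GC content removed in each library, 16 members rose and 0 fell by the longest transcript, 13 and 0 by the principal transcript and 30 and 0 by coding length. Gins1, Gins2, Rfc2, Tyms, Dut and Tipin rose as deposited and under all 3 lengths. Under the principal transcript Tipin kept 1.07 and Dut 1.17, while Gins1 kept 0.53. Gins2 had 2.72 with its 3900 nucleotide transcript, of which 555 code, and 0.63 by coding length. None of the 6 lower genes passed as lower under any of the 3, and Pole passed as higher by coding length (0.60, adjusted p = 0.0486) after 0.11 and 0.18 by the other lengths. Of all genes tested, 15.6% rose and 13.9% fell by the longest transcript, 13.2% and 11.6% by the principal transcript and 18.7% and 17.1% by coding length.

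**Figure D5:**
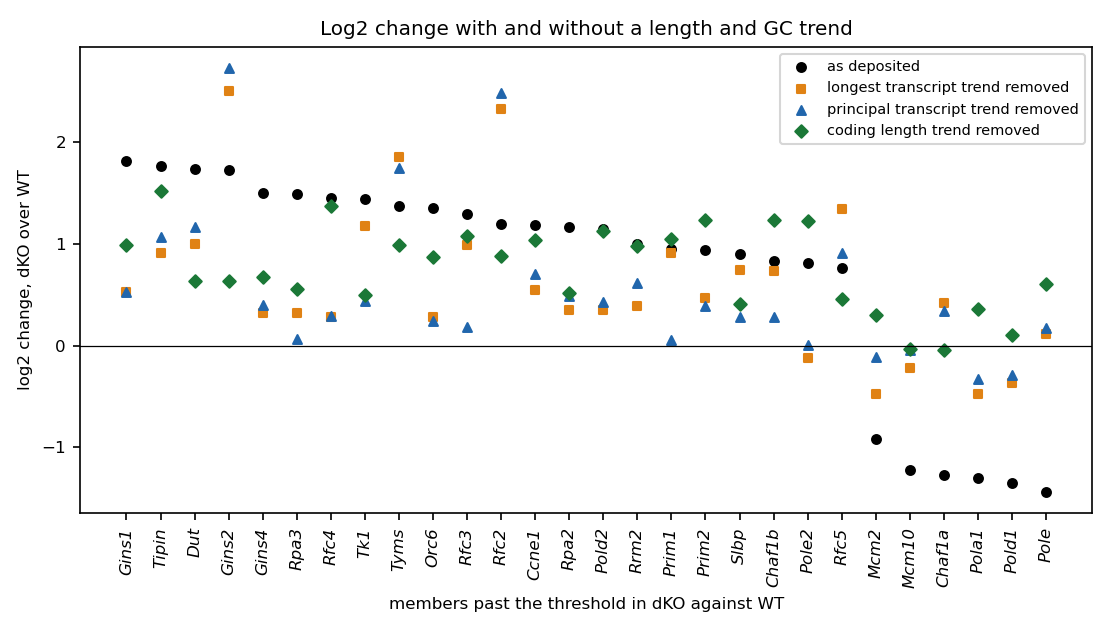
Log2 change in dKO over WT (y axis) of the 28 genes past the threshold (x axis), as deposited and after trend removal by the longest transcript, the principal transcript and the coding length. The 6 genes below 0 as deposited move towards or past 0, and Gins2, Rfc2 and Tyms stay above 0 under each.

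Against Tet2 KO, 19 members were higher and 3 lower in dKO, where 15.5% and 19.9% of all genes tested passed (35.3% in all). These were largest for Tipin (log2 change 1.65 ± 0.27 (SE), adjusted p = 0.00573), Gins1 (1.63), Rpa3 (1.62) and Dut (1.59), and the lower ones were Mcm10 (-1.28), Pold1 (log2 change -1.24 ± 0.32 (SE), adjusted p = 0.0146) and Pola1 (-0.86, adjusted p = 0.0487). Only Tipin, Prim1 and Rfc4 passed in all 12 fits that leave out a library. The count was 3 once the library labelled Tet2 KO replicate 1 was left out (5.77% of members, and 6.26% of all genes). With dKO and Tet2 KO fitted alone it was 0, with 20 members under an unadjusted p of 0.05 (38.5%, and 37.1% of all genes). With each library scaled to the same total the split was 14 higher and 7 lower (10.3% and 24.3% of all genes). With the length trend of the principal transcript removed it was 10 higher and 0 lower (6.89% and 5.54%).

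Against Traf6 KO, 15 members were higher and 8 lower in dKO (17.3% and 20.7% of all genes tested, 38.0% in all). The higher ones were led by Dut (log2 change 1.32 ± 0.40 (SE), adjusted p = 0.0238), Gins1 (1.26), Gins2 (1.24) and Rpa3 (1.18), and the lower ones by Pole (log2 change -1.76 ± 0.34 (SE), adjusted p = 0.0036), Pola1 (-1.39), Pold1 (-1.32) and Mcm10 (-1.28). Mcm2, Mcm3 and Mcm4 were also lower here (-1.15, -0.77 and -0.97). Only Pole, Pola1 and Pold1 passed in all 12 fits that leave out a library. The count of 23 fell to 4 (7.69% of members) without the library labelled Traf6 KO replicate 1 or without Traf6 KO replicate 3, where 16.5% and 14.8% of all genes passed. It was 6 (11.5%) without dKO replicate 3 and 10 (19.2%) without dKO replicate 2, where 22.4% and 29.2% of all genes passed. With dKO and Traf6 KO fitted alone it was 1 (Pole), with 6.91% of all genes. With equal library totals the split was 7 higher and 9 lower (12.6% and 22.1% of all genes), and with the principal transcript trend removed 4 were higher and 0 lower (8.24% and 7.66%). Both comparisons share the dKO libraries with the comparison against WT. Both also set dKO, with Xist at 1.30 or less, against libraries with Xist at 990.3 or more, and genotype and this difference cannot be told apart. Pola1, lower in both, is X-linked, while Pold1 (chromosome 7) and Mcm10 (chromosome 2), also lower in both, are not. Pola1 was lower in dKO over WT too (-1.30), where both groups had Xist at 17.0 or less. The part of Xist in its values was not tested.

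Traf6 KO libraries had no member past the threshold against WT. Of the 52 log2 changes over WT 47 were positive, with a median of 0.31 against -0.03 over all genes tested, and a range of -0.24 (Pola2) to 0.86 (Tipin). In this comparison 0.271% of all genes passed in either direction, and 3 members (Prim2, Rrm2 and Tipin) had an unadjusted p under 0.05 (5.77%, and 7.80% of all genes), while edgeR and DESeq2 also called 0. The smallest adjusted p was 0.38, for Tipin (11026, 15538 and 7911 in Traf6 KO and 7031, 5418 and 5888 in WT). All Traf6 KO libraries lay above all WT libraries for 15 members (28.8%), against 9.68% of all genes tested. They were Orc1, Orc2, Mcm7, Gins1, Prim2, Rfc5, Rpa1, Rpa2, Rrm1, Rrm2, Slbp, Chaf1b, Tipin, E2f1 and Ccne1, and Pold3 alone lay below (11.0%). Without the library labelled Traf6 KO replicate 1, 50 of 52 were positive with a median of 0.34, and with the principal transcript trend removed 47 were, with a median of 0.27. Over the 12 fits that leave out a library, 43 to 50 were positive, with medians of 0.23 to 0.34. Genes are not independent replicates. The members' median difference from the WT mean was 0.21, 0.42 and 0.27 in Traf6 KO replicates 1 to 3. Xist and the summed markers of mast cells and basophils and of B, T and NK cells were above WT in all 3 Traf6 KO libraries, while the neutrophil and monocyte sums overlapped WT, and the part of either in the members' values was not tested.

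In Tet2 KO libraries no member passed against WT (0.413% of all genes did in either direction), also with edgeR and DESeq2, and 2 (3.85%, against 8.44% of all genes) had an unadjusted p under 0.05: Ccne1 (log2 change 1.08 ± 0.43 (SE), adjusted p = 0.447) and Pole (log2 change -0.81 ± 0.34 (SE), adjusted p = 0.498). The median log2 change was 0.11 against 0.02 over all genes tested, with 40 of 52 positive. Without Tet2 KO replicate 3 the median was -0.02 with 23 positive, and leaving out the one labelled Tet2 KO replicate 1 gave 0.22 with 42 positive. Only Rrm2 and Ccne1 had all Tet2 KO libraries above WT (3.85%, against 8.07% of all genes). Members' medians by library were -0.13, 0.10 and 0.33 in Tet2 KO replicates 1 to 3. Of the MCM2 to MCM7 genes, Mcm7 had the largest change, at 0.21.

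The question whether both losses together gave more or less than the sum of each was asked with the interaction, the dKO difference from Tet2 KO less the Traf6 KO difference from WT, on the log2 scale. This contrast also sets dKO and WT, with Xist at 17.0 or less, against the single knockouts, with Xist at 990.3 or more. An interaction and a difference that goes with Xist cannot be told apart in it. No member passed in limma, edgeR or DESeq2, and 0.221% of all genes did in limma. Estimates ran from -1.33 (Mcm10) to 1.32 (Rpa3), with a smallest adjusted p of 0.242 (Pold1, -1.21). Of the 52, 7 had an unadjusted p under 0.05 (Mcm2, Mcm10, Pold1, Pole2, Rfc2, Rpa1 and Rpa3), which is 13.5% against 18.6% of all genes. Without dKO replicate 1, 10 members passed, 1 higher and 9 lower (19.2%, and 17.7% of all genes).

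Related genes that are not members showed both directions in dKO over WT too, against 21.9% higher and 26.5% lower of all genes. Of 30 other replication factors 11 rose and 13 fell (80% in all), and the smallest p-values were those of Atad5, which unloads PCNA (-1.71), the initiation factor Topbp1 (-1.88) and the maintenance methyltransferase Dnmt1 (-2.09). Of 23 genes of the E2F and RB network 1 rose and 9 fell (43.5% in all), among them the pocket protein Rbl2 (-2.64), 2210018M11Rik (-1.90) and Skp2, which helps to degrade the CDK inhibitor p27 (-1.24). Of 20 fork protection and checkpoint genes 1 rose and 8 fell (45.0% in all, near the 48.3% of all genes), including Hus1 (-1.43), the checkpoint kinase Atr (-2.95) and Brca1 (-2.74). Of 32 G2 and M phase genes 9 rose and 9 fell (56.2%). Cenpf, a kinetochore protein (-1.63), and Foxm1, a mitotic transcription factor (-2.18), fell, and the spindle checkpoint gene Mad2l1 rose (1.20). The genes named as fallen here have principal transcripts of 3118 (Skp2) to 11130 nucleotides (Cenpf), the length class in which 50.7% of all genes fell, and Mad2l1 has one of 7557.

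Of 18 genes of uracil and thymidylate metabolism 8 rose and 2 fell in dKO (55.6%). Dtymk, which phosphorylates dTMP, rose with Tyms and Dut (1.58). Ung, the glycosylase that cuts uracil out of DNA, fell in all 3 mutant genotypes. Ung stood at 209, 235 and 354 in dKO, 168, 146 and 120.1 in Tet2 KO, 261, 213 and 215 in Traf6 KO and 1521, 1653 and 1860.1 in WT, with no overlap between any mutant library and WT. Over WT it had log2 change -2.69 ± 0.30 (SE), adjusted p = 0.000291 in dKO, log2 change -3.54 ± 0.30 (SE), adjusted p = 7.0e-05 in Tet2 KO and log2 change -2.86 ± 0.30 (SE), adjusted p = 0.000347 in Traf6 KO, and these comparisons share the WT libraries. It was the 1 gene of the list past the threshold in either single knockout. The enzyme acts on the uracil that Dut keeps low, and Dut itself had log2 changes of 0.14 in Tet2 KO and 0.41 in Traf6 KO, neither past the threshold.

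The genes outside the list whose pattern was most like the mean of MCM2 to MCM7 over the 12 libraries were Gart, Wdr5, Ppp2r4, Mapkapk2 and Akt1, with Pearson's r of 0.97 to 0.98. Within the list, r with the same mean was 0.93 for Rpa1 and 0.92 for Mcm10 but -0.78 for Rpa3, -0.76 for Pcna and -0.74 for Gins4. The points share libraries, and the 3 dKO libraries carry much of the range. Of Gart to Akt1, principal transcripts have 2586 to 3518 nucleotides, near those of the MCM genes.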

How the data were processed

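RNA of sorted LSK cells was made into libraries with a SMART-Seq low-input kit, per the labels' protocols. The tools named, with no roles, are STAR, featureCounts, bcl2fastq and DESeq2, and the builds mm10 (GRCm38), per the submitters' processing notes; versions, annotation and strand setting are not given in the sources used here. The authors deposited a normalised signal per gene and library. Dividing by the smallest value above 0 in each library gave whole reads for 100% of values (tolerance 1e-06), so the signal is read counts scaled by 1 factor a library.

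The members and lists were chosen with earlier results of these data known. Tests were made in limma 3.58.1 with trend and robust moderation (R 4.3.3) on log2(signal + 1) over all 12 libraries as 4 groups, for genes with at least 10 in at least 3 libraries, with Benjamini-Hochberg adjustment over 14045 genes and a threshold of 0.05, in 6 comparisons. Fold changes on this scale understate changes of genes with few reads. On recovered reads edgeR 4.0.16 called 43, 28, 6539, 4881, 5171 and 27 genes and DESeq2 1.42.0 called 300, 167, 7478, 6122, 6392 and 259, in the order Tet2 KO, Traf6 KO and dKO over WT, dKO over Tet2 KO, dKO over Traf6 KO and interaction. The scripts were tested on simulated data.

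Lengths came from GENCODE M21 (GRCm38), with 28387 genes found by symbol and 2091 by synonym, and a length for 97.4% of tested genes (coding length for 90.1%). Alternatives were a pseudocount of 5, other filters, equal library totals, a replicate block, the compared groups alone, each library left out, both count tests, and a loess trend (span 0.3) on length and GC content removed; the principal transcript and the coding length were added after seeing the data. Named members were, per comparison, the up to 4 largest rises and falls past the threshold, the smallest p per role in dKO over WT, and Mcm2, Pcna, E2f1, Ccne1, Rrm2, Tyms and Cdt1, and up to 3 genes with the smallest p per other list (1 of them is not reported here); Mcm6 and the other members with values were chosen after their values were seen. The other lists held replication factors, the E2F and RB network, fork protection and checkpoint genes, G2 and M phase genes, and uracil and thymidylate metabolism.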

Additional observations from a re-analysis of the deposited data

Results flagged for a closer look

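Ung passed the interaction test. The dKO difference from Tet2 KO less the Traf6 KO difference from WT was 3.71 ± 0.42 (SE) on the log2 scale, adjusted p = 0.00109 in limma. It stood at 209, 235 and 354 in dKO, 168, 146 and 120.1 in Tet2 KO, 261, 213 and 215 in Traf6 KO and 1521, 1653 and 1860.1 in WT, so dKO lay above Tet2 KO and across the Traf6 KO range, with all of them below WT. All 3 mutant genotypes are set against the same WT libraries. The contrast sets dKO and WT against the single knockouts, so an interaction and a difference that goes with Xist cannot be told apart.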

How the results depend on the processing

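Counts of members past the threshold in Tet2 KO and in Traf6 KO over WT were 0 under every alternative run. In dKO over WT, 28 passed as reported, 22 to 34 with a library left out and 30 with a filter of 50 in 3 libraries. These are 53.8%, 42.3% to 65.4% and 57.7% of members, against 48.3%, 33.7% to 55.6% and 56.3% of all genes. With the length trend removed 16 passed, 15 with that and the replicate block, 13 by the principal transcript and 30 by coding length. In dKO over Tet2 KO, 22 passed, 3 to 33 with a library left out, 25 with the filter of 50 and 0 with the compared groups alone. Of members this is 42.3%, 5.77% to 63.5%, 48.1% and 0%. Of all genes it was 35.3%, 6.26% to 48.2%, 42.8% and 0.171%. There 10 passed with the trend removed, with that and the block, and by the principal transcript, and 20 by coding length. In dKO over Traf6 KO, 23 passed (44.2%), 4 to 31 with a library left out (7.69% to 59.6%), 11 without a filter (21.2%) and 1 with the groups alone (1.92%). Of all genes 38.0%, 14.8% to 49.8%, 16.7% and 6.91% did. With the trend removed 5 passed (9.62%), also with that and the block, 4 (7.69%) by the principal transcript and 12 (23.1%) by coding length. Of all genes 19.5%, 18.8%, 15.9% and 23.7% did. For the interaction the range was 0 to 10, and 17.7% of all genes passed in the fit with 10. With equal library totals, which moved the median of all genes in dKO over WT to -0.34, 17 rose and 7 fell in dKO over WT (46.2%, and 45.9% of all genes). The members' median over Tet2 KO was then -0.08 in place of 0.18.

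Signs turned in dKO over WT for more members than are listed here. Of the 52 changes, 35 were positive as deposited, 40 with the trend removed, 39 by the principal transcript and 46 by coding length. With equal library totals 29 were. Those that turned with the trend removed (alone and with the block) included Pole (0.11), Chaf1a (0.42), Lig1 (0.14) and Pcna (-0.27). By the principal transcript they included Pole (0.18), Chaf1a (0.34), Lig1 (0.35) and Pcna (-0.17). By coding length they included Pole (0.60), Pold1 (0.10), Pola1 (0.35), Mcm2 (0.30), Lig1 (1.06) and E2f1 (-0.038), and Pola1 over Tet2 KO (0.23) turned too. E2f1 also turned with equal totals (-0.13), without WT replicate 1 (-0.0085) and without dKO replicate 1 (-0.032), with a range of -0.032 to 0.36 over the libraries left out. The cause of a turned sign was not tested.

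Replicate numbers are in the labels, but libraries of the same number did not deviate together (correlations -0.18 to 0.19) more than the others (-0.19 to 0.22). Whether libraries of the same number share a batch cannot be told from this. With the replicate block alone 28, 22 and 18 members passed in dKO over WT, Tet2 KO and Traf6 KO. These are 53.8%, 42.3% and 34.6% of members, against 46.8%, 33.0% and 35.0% of all genes. With edgeR 28, 18 and 17 members did (53.8%, 34.6% and 32.7%, against 46.6%, 34.8% and 36.8% of all genes). With DESeq2 29, 24 and 25 did (55.8%, 46.2% and 48.1%, against 53.2%, 43.6% and 45.5%). A fit without 1 library leaves 2 in its group and borrows the spread of the others. Fen1 had the fewest reads of the members, and its values are the least precise.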
